A study of Mus musculus with 4 samples.

Results

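Non-photoconverted pancreatic ILC2 (group 2 innate lymphoid cells) of 1 sorted plate were split by their reads of Klrg1, a surface receptor gene of these cells, and all other genes were compared between the 2 sets. Of 1170 sorted cells on the 4 plates of the series, 98 entered the split: those on plate 1 that were sorted as green, had at least 500 genes with 1 read or more and had under 25% of their gene reads in mitochondrial genes. Klrg1-positive cells had 16 or more Klrg1 reads and numbered 56, which is 57.1% of the 98 (exact Clopper-Pearson 95% interval 46.7 to 67.1%, counting error only). The other 42 cells, with fewer reads, are called Klrg1-negative, although most of them had some Klrg1 reads. The 2 sets were thus chosen by Klrg1 reads, which are therefore described below and not tested.

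The mice were C57BL6J, and their cells carried KIKR, a fluorescent protein that is green until violet light turns it red; green cells are labelled KIKR-Green, non-photoconverted. The study's title concerns fasting; a feeding state for plate 1, and how many animals it holds, are not given in its labels or in the record of the sort. Both sets therefore share strain, tissue, colour, plate and library, and plate 1 counts as 1 sample. Cells of 1 plate are not replicates of a condition, so no p-value is given for any difference, and every interval covers counting error only. The row names were used for plate 1 alone. Rows named as mitochondrial genes took 5.63% of its 52614294 reads, against 0.0531, 0.0110 and 0.0204% on plates 2, 3 and 4. Rows named as spike-ins did not set plate 1 apart in this way: they took 43.2% of its reads and 0.113, 44.1 and 21.7% on the other plates.

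KLRG1 is an inhibitory receptor of the C-type lectin-like family that natural killer cells, effector T cells and ILC2 carry on their surface. It binds the classical cadherins of neighbouring cells, among them E-cadherin, and passes its signal through a short cytoplasmic motif, the ITIM, which recruits phosphatases once its tyrosine is phosphorylated. In ILC2 it is widely used as a marker of mature or activated cells, and precursors in bone marrow and some tissue ILC2 lack it.

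The gene lies on the minus strand at chr6:122270596-122282882 (mm10, GENCODE M21). The coding sequence of its annotated transcript is 564 bases long, or 188 codons, and the ITIM sits close to its start. The first 60 coding bases are shown because they carry this inhibitory motif, whose 6 codons (coding bases 13 to 30) are in capitals:
Klrg1, coding bases 1 to 60: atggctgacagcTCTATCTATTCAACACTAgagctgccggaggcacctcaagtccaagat
The method used, SORT-seq, counts reads from the 3' ends of transcripts, so the Klrg1 counts do not cover this stretch in particular.

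Klrg1 reads in the 56 positive cells ran from 18 to 2017, with a median of 205, and 48 of the cells had 64 or more. In the 42 negative cells they ran from 0 to 13 with a median of 1: 15 cells had no read and 27 had 1 to 15. The positive cells nearest to the limit had 18, 20 and 24 reads, and the negative cells nearest to it had 13, 13 and 11. As CPM, the cell's reads of a gene scaled to a total of 1000000 gene reads, Klrg1 ran from 39.8 to 6096 in positive cells with a median of 958, and from 0 to 177 in negative cells with a median of 7.11. The sets do not overlap in reads, by construction, but they do in CPM: 5 positive cells had a lower CPM than the highest negative cell. Empty wells show how much Klrg1 can come from outside a cell. Among 221 empty wells on the plate, 22 (9.95%) had at least 1 Klrg1 read and 0 had 16, which allows a share of up to 1.36%. All 8 photoconverted (red) cells of the plate that passed the same filter were Klrg1-positive, between 117 and 2830 CPM.

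**Figure D1:**
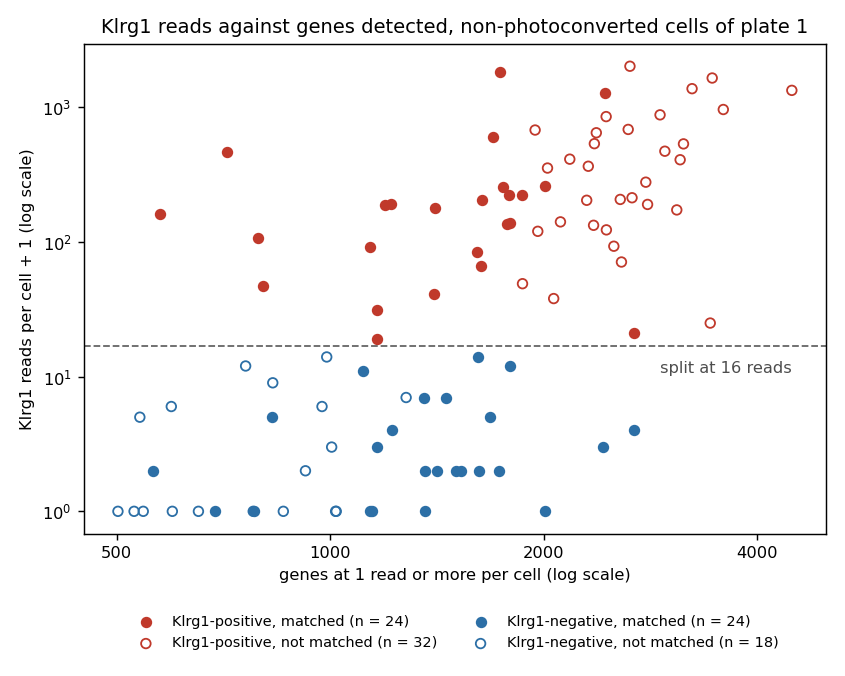
Klrg1 reads of each cell (vertical axis, log scale after adding 1) against the number of genes with 1 read or more (horizontal axis, log scale), with 1 point per non-photoconverted cell of plate 1 and a line at 16 reads. The 56 positive cells lie mostly to the right, at a median of 2145.5 genes, and the 42 negative cells to the left, at 1067.

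The split by Klrg1 was also a split by how much RNA was read from each cell. Positive cells had a median of 2145.5 genes at 1 read or more (575 to 4480), and negative cells had 1067 (502 to 2679). Gene reads per cell showed the same order, at a median of 309080 against 86245, while reads of the spike-in rows were close at 67994 against 66341.5. The mitochondrial share was 9.38% against 9.83%. When the 98 cells were divided into 4 groups by genes detected, 4 of 25 cells in the lowest group were Klrg1-positive (16%), then 9 of 24 (37.5%), 20 of 24 (83.3%) and 23 of 25 (92%). More RNA in the cell and better recovery of its RNA cannot be told apart here.

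Other genes followed the same gradient, as they must for a typical gene, because the groups were made by genes detected. Their rise is given as a measure for that of Klrg1 and is not a result about these genes. The 55 genes whose share of cells at 16 reads lay within 5 percentage points of the Klrg1 share were detected in a median of 24, 45.8, 70.8 and 88% of cells across the same 4 groups. From the lowest to the highest group Klrg1 differed by 76 points and these genes by a median of 64 points, with 7 of them larger than Klrg1, 6 equal and 42 smaller. Genes that define ILC2 did likewise. Gata3, the transcription factor that ILC2 require, was found in 52% of the lowest and 96% of the highest group, and Il1rl1, the receptor for interleukin-33, in 36% and 84%. Il17rb, the receptor for interleukin-25, was found in 0% and 76%. Actb, the cytoskeletal actin gene, was near its limit throughout, at 92% and 100%.

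For this reason each positive cell was paired, where possible, with a negative cell within 0.25 on the log2 scale of genes detected, which left 24 matched positive and 24 matched negative cells. Matching brought the medians to 1623 and 1390 genes and to 168702 and 132744 gene reads. An imbalance in depth remained, since the positive cell had more genes in 22 of the 24 pairs and fewer in 2, by a median of 0.03 on the log2 scale. Genes at 16 reads or more, the limit for detection used below, were not matched and stood at a median of 766 against 664 per cell. Klrg1 in the matched positive cells ran from 50.3 to 6096 CPM (median 1072) and in the matched negative cells from 0 to 141 (median 7.11). Other properties of the matched cells were not equal either: the mitochondrial share was 10.95% against 7.66%, red fluorescence was a median of 177 against -69 arbitrary units, and the median plate column was 7 against 13. Their part in the differences below was not tested.

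Detection in a cell meant 16 reads or more of the gene, and 846 genes other than Klrg1 were detected in at least 20% of the 48 matched cells. Their shares were higher in positive cells by a median of 4.17 percentage points (quartiles -4.17 and 8.33), with 450 genes above 0, 246 below and 150 equal. In the matched cells, 81 genes (9.57%) were higher by 20 points or more, that is by at least 5 cells of 24, and 20 genes (2.36%) were lower by as much. Without matching, over all 98 cells, the median difference of the same genes was 22.6 points, 509 (60.2%) were higher by 20 points or more and 0 were lower. A stricter pairing, within 0.1 and with 21 cells on each side, gave 49 higher and 32 lower genes with a median difference of 0 points over 811 genes. The excess of higher over lower genes thus varied with how closely depth was matched. By an exact interval for each share, 1 gene of 846 (0.118%) was higher with intervals that do not overlap, Sdha, and 0 were lower.

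**Figure D2:**
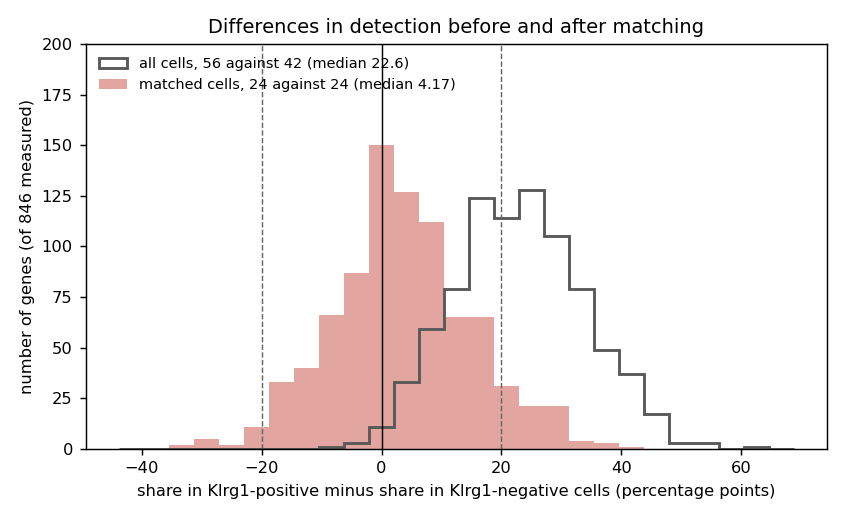
Difference in the share of cells at 16 reads or more (horizontal axis, percentage points, positive minus negative; dashed lines at 20 points either way) against the number of genes (vertical axis), for all 98 cells (outline) and for the 24 matched cells on each side (filled). Over the 846 measured genes the centre moves from a median of 22.6 to 4.17 points with matching.

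ILC2 identity was present on both sides of the split. At least 3 markers of ILC2 other than Klrg1 were detected in 54 of the 56 positive cells and 33 of the 42 negative cells, and after matching in 22 and 21 of 24 cells. Of 27 transcription factors of ILC2 and related cells, 9 were measured in the matched cells, and 0 differed by 20 points in either direction, with a median of 0 points. Over all 846 genes 9.57% were higher and 2.36% lower by as much, and 0 of 9 cannot be set apart from that background. Gata3 was detected in 21 positive and 17 negative cells of 24, Id2, which all innate lymphoid cells need, in 21 and 21, and Lmo4, a LIM-domain cofactor, in 18 and 19. By level, Gata3 was at a median of 2305 CPM (0 to 6515) in positive cells and 936 CPM (0 to 5495) in negative cells. These ranges overlap almost completely, and both sides include cells with no Gata3 read.

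Receptors for the cytokines that activate or maintain ILC2 differed by small amounts, higher in positive cells under most but not all ways of processing. Of 7 measured members, 6 had a higher share in positive cells and 1 an equal share, with a median of 8.33 points against 4.17 for all genes, but 0 reached 20 points. Among all 846 genes 9.57% were higher by as much, a background from which 0 of 7 cannot be set apart. Il1rl1 was detected in 18 positive and 16 negative cells, at a median of 1015 CPM (0 to 9838) and 1071 CPM (0 to 10857). Il2rg, the shared gamma chain of the receptors for interleukins 2, 7 and others, was detected in 19 and 17 cells, and Il7r, the interleukin-7 receptor, in 14 and 10. Il17rb and Il2ra, named here after their values were seen, were detected in 7 against 3 and in 9 against 8 cells. The receptors' median was 0 points with the stricter pairing (all genes 0) and with cells of 1 to 15 Klrg1 reads left out (all genes 0). It was -1.92 points with the split at 4 Klrg1 reads (all genes 0), where Il2rg and Il1rl1 were lower in positive cells. As a log2 ratio of mean CPM it was -0.11 (all genes -0.03). It was 10.1 points against the 3 nearest negative cells (all genes -1.19) and 4.16 within the 4 groups by genes detected (all genes 1.01). In matched cells drawn down to 1000 reads it was 3.47 points (all genes 0.55).

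Of 30 effector genes 5 were measured, and they went both ways, 3 higher, 1 lower and 1 equal, from -16.7 to 16.7 points. Their median was 8.33 points against 4.17 for all genes, and -0.26 against -0.03 as a log2 ratio of mean CPM. By 20 points 0 differed, beside 9.57% of all genes higher and 2.36% lower, at numbers too small to read further. Areg, which encodes the repair factor amphiregulin, was detected in 15 cells on each side, at a median of 538 CPM (0 to 7754) in positive and 397 CPM (0 to 9239) in negative cells. Calca, which encodes calcitonin and the neuropeptide CGRP, was detected in 12 and 8 cells, and Arg1, the arginase of ILC2, in 12 and 10. In mean CPM the order was the opposite: Calca stood at 733 in positive and 952 in negative cells, and Arg1 at 727 and 1205. The ILC2 cytokine genes Il5 and Il13 and the transcription factor Rora were under the 20% filter. They were looked up afterwards: Il5 was detected in 4 and 3 cells, Il13 in 1 and 0, and Rora in 0 and 2, too few to read a direction from.

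Few other receptors were measured beside Klrg1. Of 26 checkpoint and costimulatory receptors 4 were measured, too few to set apart from the background of 9.57% of all 846 genes higher by 20 points or more. Of the 4, 1 passed 20 points. This was Cd200r1, the inhibitory receptor for CD200, detected in 11 positive and 4 negative cells (45.8%, interval 25.6 to 67.2%, and 16.7%, interval 4.74 to 37.4%). Cd69, an early activation and tissue-retention antigen, was detected in 13 and 9 cells, Lilrb4, an inhibitory receptor with ITIMs, in 14 and 10, and Icos, a costimulatory receptor, in 6 and 9. The list's median of 16.7 points became -0.04 when each matched cell was drawn down to 1000 reads, where all genes had a median of 0.55. As a log2 ratio of mean CPM it was -0.23, beside -0.03 for all genes. It was 11.9 points with the stricter pairing (all genes 0) and 10.1 within the 4 groups by genes detected (all genes 1.01). Of 9 measured surface antigens 1 was higher by 20 points or more, beside the same background of 9.57%. This was Cd52, a small glycoprotein of lymphocytes, detected in 15 and 9 cells. Ly6a (Sca-1) was detected in 17 and 16, Ly6e in 20 and 22 and Thy1 in 4 and 6. Thy1 differed more in level, with means of 107 CPM (0 to 889) in positive and 1029 CPM (0 to 7900) in negative cells. Of 12 ligands and signalling partners of KLRG1, 9 were detected in at least 1 cell and 1 was measured: Csk, the kinase that inhibits Src-family kinases, in 8 and 10 cells. Of 33 lectin-like receptors of the natural killer gene complex, which KLRG1 resembles, 11 had a row, 5 were detected in any cell and 0 were measured.

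The 12 genes named on the positive side have varied roles. They were those with the largest excess in matched positive cells whose sign was kept in cells drawn down to 1000 reads and within groups of like depth, ribosomal proteins and numbered gene models left out, so their direction was fixed by their choice. Sdha, the catalytic subunit of succinate dehydrogenase, had the largest difference, 41.7 points. It was detected in 12 positive cells (50%, interval 29.1 to 70.9%) and 2 negative cells (8.33%, interval 1.03 to 27.0%). Its level ran from 0 to 1503 CPM with a median of 52.6 in positive cells, and from 0 to 4220 CPM with a median of 0 in negative cells. The highest single value was thus in a negative cell, and the means were close at 303 and 281 CPM. Sdha lies at chr13:74322254-74350280 on the minus strand.

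Psen2, which encodes the presenilin-2 subunit of gamma-secretase, was detected in 11 positive and 2 negative cells. It differed in level as well, from 0 to 3250 CPM in positive cells and from 0 to 374 in negative cells, with means of 450 and 34.3 CPM. Eef1g, a subunit of translation elongation factor 1, was detected in 17 and 8 cells, at medians of 333 CPM (0 to 1402) and 52.0 CPM (0 to 1602). Ahcyl2, a homologue of adenosylhomocysteinase, was detected in 16 and 8 cells, at medians of 394 CPM (0 to 3587) and 39.6 CPM (0 to 1606). Ccnd2, the G1 cyclin D2, was detected in 14 and 6 cells, and Naca, a chaperone of nascent chains at the ribosome, in 15 and 7. In each of these genes both sets include cells at 0, so no gene separates them.

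The other 6 named genes on the positive side were detected in 10 or 11 positive and 3 negative cells each. They were Dynll1, a dynein light chain, Bcap31, a protein of the endoplasmic reticulum membrane, Gpi1, a glycolytic enzyme, Ikzf1, the lymphoid transcription factor Ikaros, Polr1d, a subunit of RNA polymerases I and III, and Rbms1, an RNA-binding protein. Polr1d had the widest gap in mean level of these, at 752 against 89.0 CPM. For Eef1g, Naca and the ribosomal proteins, processed pseudogenes can share reads, and how such reads were assigned is not given in the sources used here.

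Genes with a lower share in positive cells were fewer. The same rule named 12 of them. B4galnt1, which makes gangliosides of the GM2 and GD2 type, was detected in 6 positive cells (25%, interval 9.77 to 46.7%) and 14 negative cells (58.3%, interval 36.6 to 77.9%), at medians of 9.26 CPM (0 to 4331) and 125 CPM (0 to 3654). Usf2, a basic helix-loop-helix transcription factor, was detected in 4 and 12 cells, at medians of 0 CPM (0 to 913) and 96.8 CPM (0 to 1667). Of these 12 genes, B4galnt1 and Usf2 alone kept their sign under all 17 other ways of processing that were listed for the comparison. On the positive side 10 of the 12 did so. Among these ways, 2 had also served to choose the genes. The 10% gene filter and no gene filter kept the same cells and detection limit, so a gene's sign could not change there. Without matching, 720 genes were higher by 20 points or more and 0 lower, which favours the sign of genes on the positive side. The contrast between the sides therefore does not rank them by stability. Kctd12, an auxiliary subunit of GABA-B receptors, was detected in 8 and 14 cells, with means of 1512 and 4074 CPM. Epas1, the hypoxia-inducible factor HIF-2alpha, was detected in 5 and 10 cells, and Cacybp and Psmd8, a calcyclin-binding protein and a proteasome subunit, each in 3 and 10. Neurl3, a ubiquitin ligase, was detected in 8 and 13 cells, and Akap13, an A-kinase anchoring protein, and Ccni, a cyclin, each in 4 and 9.

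The remaining 3 genes on this side belong to signalling pathways of lymphocytes. Lat, the adaptor that T cell receptors and other immune receptors signal through, was detected in 4 positive and 11 negative cells, at medians of 7.18 CPM (0 to 430) and 67.5 CPM (0 to 1891). Traf1, an adaptor of TNF-family receptors, was detected in 3 and 10 cells, and Ifi47, an interferon-inducible GTPase, in 5 and 12. Over all 98 cells without matching, Lat had the opposite sign, 24 of 56 positive and 15 of 42 negative cells, a difference of 7.14 points, and Traf1 and Ifi47 differed by 1.19 and 10.1 points.

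T cell markers were counted beside Lat, which is itself on that list. At least 3 T cell-like markers were detected in 2 of the 24 matched negative cells and 0 of the 24 matched positive cells, and in 2 further positive cells outside the matching. Of 9 markers with a row, 6 were detected in any cell; Cd3e, Themis and Cd6 were detected in none. The summed level ran from 0 to 2235 CPM (median 33.9) in matched positive cells and from 6.83 to 7925 CPM (median 440) in matched negative cells. This sum includes Lat, which was named for its lower share in positive cells, at means of 46.6 and 479 CPM. The gap in the sum is therefore not separate from that choice. Bcl11b, also on the list of ILC2 factors, is in the sum too and was detected in 10 and 9 cells. Cd3d was detected in 0 and 2 cells and Cd3g in 1 and 2. Leaving out all 4 cells with 3 or more T cell-like markers, an alternative chosen after seeing the data, gave 22 cells on each side. Of 799 genes 68 were then higher and 23 lower (8.51 and 2.88%), and the difference was -22.7 points for Lat and 36.4 points for Sdha. At least 3 myeloid-like markers were detected in 3 positive cells, 1 of them matched, and 0 negative cells. Of the natural killer cell markers 7 had a row, and no cell had 3 of them. The 5 acinar enzyme genes with a row were at 0 in every cell. For B, mast, stromal, ductal, endocrine and erythroid cells only 0 to 2 markers had a row, too few for such a count.

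**Figure D3:**
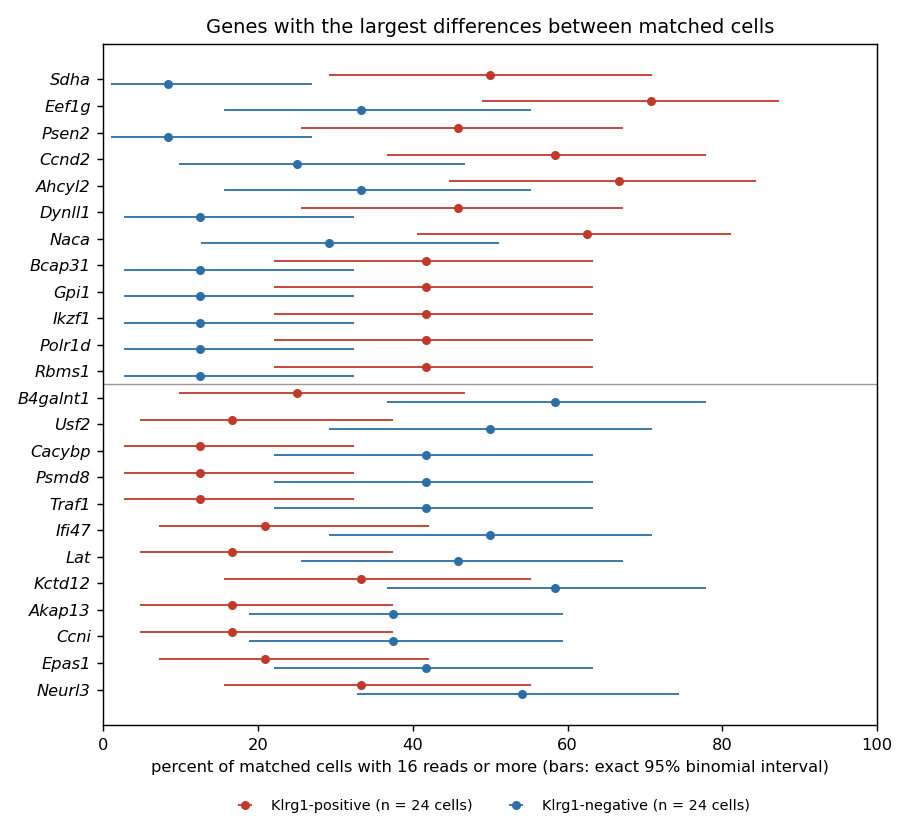
Share of matched cells with 16 reads or more (horizontal axis, percent) for the 24 named genes, Klrg1-positive and Klrg1-negative, with exact 95% intervals that cover counting error only. The intervals are apart for Sdha and overlap for the other 23 genes.

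The gene groups are read against the 9.57% of all 846 genes that were higher by 20 points or more and the 2.36% that were lower. Of 69 measured cytosolic ribosomal protein genes, 5 were higher by 20 points and 0 lower, with a median of 4.17 points, equal to that of all genes. That share is no larger than the background. The 5 were Rps25 (22 and 13 cells), Rpl8 (21 and 15), Rpl32 (23 and 18), Rpl36a (21 and 16) and Rps26 (12 and 5). Of 23 measured nuclear genes of the respiratory chain, 4 were higher and 0 lower: Sdha and the ATP synthase and cytochrome oxidase subunits Atp5g2 (13 and 8 cells), Cox6b1 and Cox5b (9 and 4 each). Their median was also 4.17 points. The share of 4 in 23 stands beside 9.57% over all genes, at numbers too small to read further.

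Of 13 measured mitochondrially encoded genes, 2 were higher, mt-Nd3 (17 and 12 cells) and mt-Atp8 (13 and 8), with a median of 8.33 points, beside the higher mitochondrial share of the matched positive cells given above. When each positive cell was instead compared with its 3 nearest negative cells, these genes differed by -4.17 and -8.93 points. Of 5 measured cell cycle genes, 2 were higher, Ccnd2 and Tuba1b (11 and 4 cells), an alpha-tubulin, while Pcna, the sliding clamp of DNA replication, was detected in 3 and 7 cells and H2afz in 5 and 9. The list's median was 0 points. With 13 and 5 genes measured, 2 higher members in each list cannot be set apart from the background of 9.57%.

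Single members were higher by 20 points in 4 further groups, beside the background of 9.57%. They were Arpc3 of the actin-nucleating Arp2/3 complex (8 and 2 cells, of 28 measured cytoskeletal genes), Gpi1 (of 5 glycolytic genes), Psme1, a proteasome activator of the antigen presentation list (12 and 7 cells, of 12 genes), and Hspe1, the mitochondrial chaperonin HSP10 (11 and 5 cells, of 15 chaperones). In the NF-kB, antigen-receptor signalling and interferon lists the single members past 20 points were the lower genes Traf1, Lat and Ifi47, of 8, 9 and 6 measured, beside 2.36% lower over all genes. The medians of these 3 lists were 8.33, 0 and -2.08 points, beside 4.17 for all genes.

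Of 21 measured immediate early genes, which dissociation and activation both induce, 0 passed 20 points, with a median of 4.17 points. Members went both ways, 12 higher, 8 lower and 1 equal, from -16.7 to 16.7 points. Nr4a1 was at 16.7 points. Junb was detected in 23 and 21 cells and Zfp36 in 21 and 20. Of 12 measured chemokine receptor, adhesion and egress genes 0 passed it, with a median of 6.25 points, and Rgs2 was detected in 16 and 13 cells. Of 5 measured genes of the glucocorticoid and fasting response 0 passed it, with a median of -4.17 points. Dusp1 was detected in 17 and 13 cells and Txnip in 9 and 11. The S100, neuropeptide receptor and progenitor lists likewise had 0 members past 20 points among 9, 3 and 5 measured genes.

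**Figure D4:**
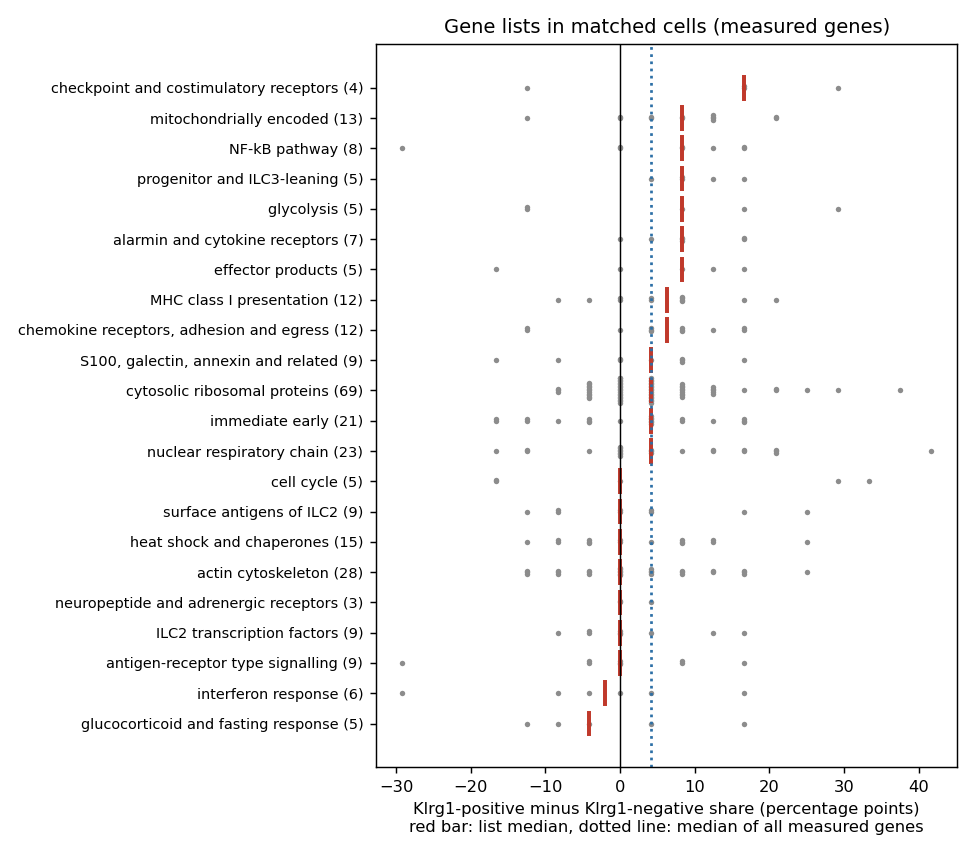
Difference in the share of matched cells (horizontal axis, percentage points, positive minus negative) for each measured member of each gene list, with 1 point per gene, for lists with at least 3 measured members; a red bar marks the list's median and a dotted line the median of all measured genes, 4.17 points. Most members of each list lie within 20 points of 0, and the medians shown run from -4.17 to 16.7 points.

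Among the positive cells themselves, the level of Klrg1 did not order the named genes on the positive side the way the split did. The 56 cells were divided at the middle of their Klrg1 CPM into 28 cells above 987 CPM and 28 below 929 CPM, a division made after the data were seen. The 28 cells with more Klrg1 had fewer genes, at a median of 1978.5 against 2333, and the median difference over the 846 genes was -7.14 points. Of the 12 named higher genes, 5 had the same sign in this comparison and 7 the opposite. Of the 12 named lower genes, 9 had the same sign and 1 the opposite, the same side as that overall median.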

How the data were processed

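Raw read counts for each gene row and well were deposited, not counts of molecular identifiers as far as the values show. The deposited sort record gives a red fluorescence intensity, in arbitrary units that reach below 0, per the file headers. Per the labels' protocols, cells were sorted into SORT-seq plates and libraries followed CEL-seq2. STAR, STARsolo and edgeR were used with mm10, per the submitters' processing notes; versions and roles are not given in the sources used here. Cells, split and filters are as given above; the split, members and gene lists were chosen with earlier results of these data known.

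The limit for detection was 16 reads, and 44.4% of values above 0 in these cells were under it. Whether such low values are stray reads or low expression was not tested. Matching was an optimal 1-to-1 pairing on genes at 1 read or more, within 0.25 (log2), without replacement. CPM used reads outside spike-in rows. Drawing down to 1000 reads used the exact expected share of draws with 1 read or more. Differences within groups of like depth used quartiles of genes with Mantel-Haenszel weights. Genes named were, in each direction, the 12 that differed most among measured genes with the same sign in these last measures, with ties broken by name and ribosomal proteins, numbered models and pseudogenes skipped, and, of each list, the 3 measured members with the highest mean CPM and every member past 20 points; genes named after their values were seen are marked or are markers of the label check. Cells were compared as 1 sample with no test, since plates are the samples and 1 plate has usable names. Doublets were not called, since wells held single sorted cells. The alternatives are given in the closing section. Coordinates are from GENCODE M21. Python 3.11.15, numpy 2.4.6, pandas 2.3.3, scipy 1.17.1 and matplotlib 3.10.9 were used. The comparison was also run on simulated data, to check that genes raised in positive cells came out above 0. That check set no limit on unchanged genes past 20 points, so it does not bear on the counts of such genes. A count of cells by ILC3-like markers is not reported here.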

Additional observations from a re-analysis of the deposited data

How the results depend on the processing

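The share of Klrg1-positive cells was 71.4% with the split at 4 reads and 68.4% among cells with 1000 genes or more. The counts of genes higher and lower by 20 points were 81 and 20 of 846 measured genes as reported (9.57 and 2.36%). Both the counts and the number of genes measured varied with the processing, so shares are given beside the counts. Detection at 4 reads gave 140 and 56 of 1367 (10.2 and 4.1%), and at 64 reads 51 and 12 of 423 (12.1 and 2.84%). In these settings the share of higher genes changed less than the count. Leaving out cells of 1 to 15 Klrg1 reads gave 160 and 122 of 626 (25.6 and 19.5%), with 10 cells on each side. Without matching there were 720 and 0 of 1222 (58.9 and 0%), and against the 3 nearest negatives 185 and 294 of 1832 (10.1 and 16%). The stricter pairing gave 49 and 32 of 811 (6.04 and 3.95%). Drawing all cells down to 1000 reads gave 26 and 0 of 846 (3.07 and 0%), and drawing matched cells down gave 3 and 3 (0.355% each). Cells with 1000 genes or more gave 177 and 72 of 1137 (15.6 and 6.33%). A 10% gene filter gave 139 and 51 of 2278 (6.1 and 2.24%). With no filter the same counts were of 7447 genes (1.87 and 0.685%). Higher genes numbered 22 of 567 (3.88%) with the split at 4 reads and 46 of 917 (5.02%) within groups of like depth. Lower genes numbered 48 of 1253 (3.83%) with the split at 64 reads and 68 of 934 (7.28%) with pairing on reads. They numbered 35 of 986 (3.55%) without cells under 3 ILC2-like markers, and 111 of 846 (13.1%) by mean CPM past 2-fold. The median difference was 22.02 points without matching, -1.19 points against the 3 nearest negatives and -0.0274 (log2 ratio) by mean CPM.

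Of the genes past 20 points, these changed sign. Without matching, the differences were 4.76 points for Cacybp and Psmd8, 1.19 for Traf1, 10.1 for Ifi47, 7.14 for Lat, 13.1 for Akap13 and Neurl3, 17.3 for Ccni and 8.93 for Epas1. With the split at 4 reads they were -3.85 for Dynll1, 3.85 for Kctd12 and Neurl3 and -7.69 for mt-Atp8. Against the 3 nearest negatives they were -8.93 for mt-Atp8 and -4.17 for mt-Nd3. Pairing on reads gave 5 for Ccni and -10 for Psme1, leaving out cells of 1 to 15 Klrg1 reads gave -10 for Dynll1, and detection at 64 reads gave 8.33 for Traf1. Their causes were not tested. Of 53 further list members followed in the same way, all under 20 points and not at 0, 47 had the opposite sign under at least 1 of 18 settings. The pairs of cells served to match depth and were not compared pair by pair, and the exact intervals ignore the pairing. A paired analysis of samples was not possible because plate 1 is 1 sample. With 24 cells on each side, 1 cell is 4.17 points, and differences of a few cells were not detectable beyond counting error.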
